A study of Homo sapiens with 13 samples.

Results

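The step from day 1 to day 2 of a human embryonic stem cell differentiation course was described by setting the day 2 array against the day 1 array, 2 of the 13 arrays of the study. They came from HES3, an established line of human embryonic stem cells, here carrying a GFP reporter of RUNX1C, and before differentiation the parent line grew on mouse feeders with FGF2. For differentiation the cells were aggregated by centrifugation into spin embryoid bodies in APEL, a defined medium, which held BMP4, VEGF, SCF and activin throughout the first 4 days, so that both arrays come from cells in the same factors. The study took unsorted cells once a day from day 0 to day 8 and 4 sorted fractions on day 7. Each day is 1 array of 1 line, so the difference between day 1 and day 2 has no replicate check and carries no p-value.

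A gene was taken as a member of the step if its level, the log2 intensity after joint normalization of the 13 arrays, differed at least 2-fold between the days and its probe was detected (detection p below 0.01) on the brighter array. A level below detection was raised to the detection floor of its array, and the fold is then a lower limit, written "at least". Of 13340 genes detected on either day, 328 (2.46%) were higher on day 2 and 384 (2.88%) were lower, 712 (5.34%) in all. These differences chose the members, so their size is a description. The members just inside the threshold differed by 1.001 and -1.0001 on the log2 scale and those just outside by 0.991 and -0.998.

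In the embryo the primitive streak is the region of the epiblast where cells lose their epithelial state and leave as mesoderm and endoderm. Nodal or activin, WNT and BMP signals induce it, and T-box and homeobox factors such as EOMES, TBXT (brachyury) and MIXL1 mark it. MESP1 marks the mesoderm that has just left the streak. In culture, activin and BMP4 given to pluripotent cells start the same set of genes, and the mesoderm formed this way is the source of the blood and endothelial cells that such courses are made for.

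The 250 bases before the RefSeq transcription start of 4 of the genes described most fully are shown, because all 4 were far higher on day 2 and such regions are where general and signal-dependent factors bind (RefSeq GRCh38.p14, printed 5′ to 3′ on the strand of the gene). Capitals mark matches to short motifs that were searched on both strands. The MIXL1 region is chr1:226223414-226223663 on the plus strand and the HAND1 region is chr5:154478228-154478477 on the minus strand, and each holds 1 match to the TCF/LEF core ATCAAAG, the sequence bound by the factors that carry WNT signals, with its first base 76 and 46 bases before the start. The EOMES region is chr3:27722324-27722573 and the TBXT region is chr6:166168656-166168905, both on the minus strand. Each holds 1 match to the TATA box pattern TATAAA, 31 and 29 bases before the start. Both matches lie on the strand opposite the gene (TTTATA as printed), so neither region holds TATAAA in the direction of transcription. Only exact matches were marked, so the tataag of the MIXL1 and HAND1 regions was not.
MIXL1: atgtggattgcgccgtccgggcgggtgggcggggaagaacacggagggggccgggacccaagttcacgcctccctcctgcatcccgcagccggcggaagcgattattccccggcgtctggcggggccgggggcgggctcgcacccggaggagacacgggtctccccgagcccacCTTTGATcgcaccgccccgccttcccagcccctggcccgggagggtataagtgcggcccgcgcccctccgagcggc
HAND1: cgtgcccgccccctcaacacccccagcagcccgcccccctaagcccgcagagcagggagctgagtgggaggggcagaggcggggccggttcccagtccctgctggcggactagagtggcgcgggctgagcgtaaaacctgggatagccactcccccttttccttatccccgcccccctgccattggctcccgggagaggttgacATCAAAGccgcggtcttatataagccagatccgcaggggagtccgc
EOMES: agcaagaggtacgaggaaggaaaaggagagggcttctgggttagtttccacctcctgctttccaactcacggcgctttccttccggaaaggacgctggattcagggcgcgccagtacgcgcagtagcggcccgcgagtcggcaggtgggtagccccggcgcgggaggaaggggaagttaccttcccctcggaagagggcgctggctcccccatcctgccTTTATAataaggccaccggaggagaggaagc
TBXT: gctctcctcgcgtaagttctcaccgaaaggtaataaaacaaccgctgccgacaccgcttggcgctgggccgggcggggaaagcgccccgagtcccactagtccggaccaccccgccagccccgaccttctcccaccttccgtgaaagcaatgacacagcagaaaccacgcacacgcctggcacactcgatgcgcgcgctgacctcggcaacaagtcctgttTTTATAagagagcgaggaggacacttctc
Among all 35116 promoters of this length, 2.26% held the TCF/LEF core and 10.7% the TATA box pattern, on either strand. This background was not limited to the genes tested or to 1 promoter per gene, whereas the higher and lower genes were counted with 1 promoter each. Among 231 genes higher on day 2 that had a promoter in the table the shares were 1.73% and 6.49%. Among 225 lower genes they were 0.889% and 15.6%. The T-box core AGGTGT was in 9.57% of all promoters, 9.52% of the higher genes' and 7.11% of the lower genes', and the E-box CATCTG in 12.2%, 9.09% and 10.2%. Neither of these motifs was in the 4 promoters shown, and the promoter of CER1, another gene far higher on day 2, held none of the 4 motifs.

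The change was larger upward than downward in fold. Among the 328 higher genes, 85 passed 4-fold, 41 passed 8-fold and 14 passed 16-fold. Among the 384 lower genes, 28 passed 4-fold, 1 (LEFTY2) passed 8-fold and 0 passed 16-fold. In the authors' normalized values AFP, MRAP2, ACTG2, PRDM14 and MX1 passed 8-fold as well, at differences of -3.60 to -3.03. Of the higher genes, 116 were not detected on day 1, and 63 of the lower genes were not detected on day 2; such a gene could be counted only through the day on which it was bright. The median difference over all genes tested was -0.02 and 12 reference genes ranged from -0.46 to 0.25. The preceding step, from day 0 to day 1, had 538 genes (3.88%) past the rule and the following step 744 (5.33%). The step from day 4 to day 5 had the most, 1009 (6.83%), and the step from day 6 to day 7 the fewest, 106 (0.729%). At least 4-fold higher genes numbered 24 in the preceding step, 85 in this one and 90 in the following one.

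**Figure D1:**
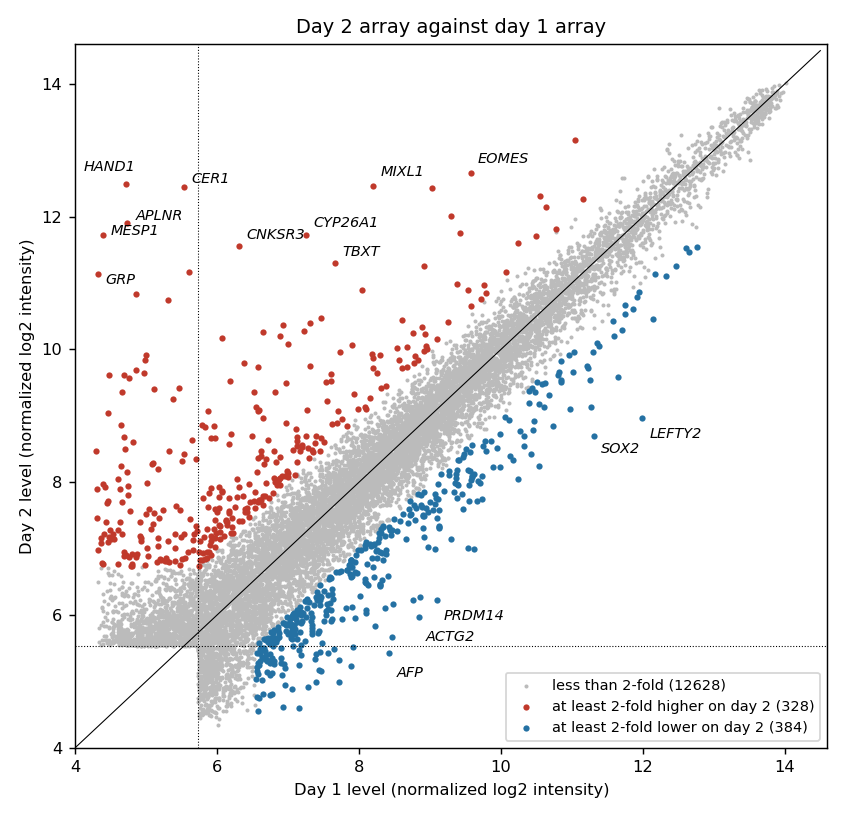
Normalized log2 intensity on day 2 (vertical) against day 1 (horizontal), 1 point for each of 13340 genes, with dotted lines at the detection floors of both arrays and a diagonal at equal levels. The 328 higher genes (red) reach farther from the diagonal than the 384 lower genes (blue), and HAND1, CER1, APLNR, MESP1 and GRP lie left of the day 1 floor.

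The 9 arrays of the course were Illumina BeadChip arrays with the same set of probes. Which chip or slide held each array is not given by the sample titles or column names. The day 1 array had the fewest detected probes of the 13, 15134 against a highest count of 17833, and the highest floor, 5.73; the day 2 array had 16135 detected probes and a floor of 5.53. What this gap does to the number of genes not detected on day 1 was not tested. These are bulk samples, in which more cells of a type and more RNA per cell cannot be told apart.

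As a measure of error, a smooth curve (natural spline, 3 degrees of freedom) was fitted to the 9 days of each of 17657 genes, and the fitted change from day 1 to day 2 was tested with limma. It gave a call in 192 genes (1.09%), a rise in 104 genes (0.589%) and a fall in 88 (0.498%) at an adjusted p below 0.05 and at least 2-fold, and 86 of the 328 higher and 57 of the 384 lower genes were among them. The residual SD about the curve had a median of 0.25 and the SE of the fitted change a median of 0.11, on 5 residual degrees of freedom. The fit used the day 1 and day 2 arrays that chose the members, so its calls are not separate support for them. Its error is the departure of single arrays from a smooth curve and not a spread of replicates. The counts of calls moved with the days used: they were 272 rises and 211 falls without day 0, and 47 and 57 without day 3. Without day 1 they were 106 and 78, of which 91 and 75 were shared with the full fit. Without day 2 they were 141 and 85, with 89 and 66 shared. Many calls thus did not need the day 1 or the day 2 array, and the fitted change is drawn in part from the other days. The rises numbered 64, 62 and 64 without day 6, day 7 and day 8. "Rose" and "fell" are used here only of genes with such a fitted call. The curve spreads an abrupt change over several days, so its fitted change is smaller than the measured step of genes that switch on within a day.

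The transcription factors of the streak had the highest median difference of the 27 gene lists. This rank is a description, because the lists were chosen with earlier results of these data known. The genes that mark the streak, EOMES, MIXL1 and TBXT, and MESP1, which marks its descendants, were all higher on day 2, although EOMES, MIXL1 and TBXT were first detected on day 1. Of 16 listed factors 13 were detected on either day. At least 2-fold higher on day 2 were 10 and lower 0, against 2.46% and 2.88% of all genes tested. By the fit 6 rose, and the median difference was 2.44. MESP2, EVX1 and MSGN1 were not detected on either day. EOMES, the T-box factor needed for endoderm and for the departure of mesoderm, stood at 4.65, 9.58, 12.66 and 12.35 on days 0, 1, 2 and 3. It was therefore already well above its day 0 level on day 1 and a further 8.46-fold higher on day 2 (fitted rise 3.16 ± 0.26 log2 (SE), adjusted p = 0.000669). MIXL1, a homeobox factor of the streak, stood at 4.80, 8.20, 12.46 and 11.14, a difference of 19.2-fold (fitted rise 2.77 ± 0.29, adjusted p = 0.00221). Both fitted calls were lost with a curve of 2 degrees of freedom and without day 0. MESP1 was below detection on both early days, at 4.46 and 4.40, and stood at 11.72 and 11.52 on days 2 and 3, at least 63.6-fold above day 1. Its fitted rise was 2.93 ± 0.57 (adjusted p = 0.0257) and was kept in 5 of 14 alternative fits. EOMES and MIXL1 were thus detected a day before MESP1.

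TBXT, which specifies the streak and notochord, stood at 4.66, 7.66, 11.31 and 8.27, 12.5-fold higher on day 2 than on day 1 and lower again on day 3. A second TBXT probe, not detected on day 1, differed by at least 2.86 log2. SP5, a zinc finger target of WNT signals, had the same order, at 4.39, 7.31, 9.75 and 8.54. LHX1 and GSC, homeobox factors of the anterior streak and organizer, were not detected on days 0 and 1. LHX1 stood at 9.69 on day 2 and 10.30 on day 3, at least 15.5-fold above day 1, and GSC at 8.48 and 7.44, at least 6.71-fold. GATA6, a factor of endoderm and cardiac mesoderm, went from below detection (4.75) to 7.94, at least 4.62-fold. OTX2, a factor of the epiblast and anterior streak, was 1.92 log2 higher, and HHEX, an early anterior endoderm factor, 1.96 log2 higher. The 3 factors below the threshold were FOXH1, a partner of SMADs, at 0.45, TBX6, a paraxial mesoderm factor, at 0.53, and FOXA2, an endoderm factor, at 0.74; FOXA2 reached 9.33 on day 3.

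**Figure D2:**
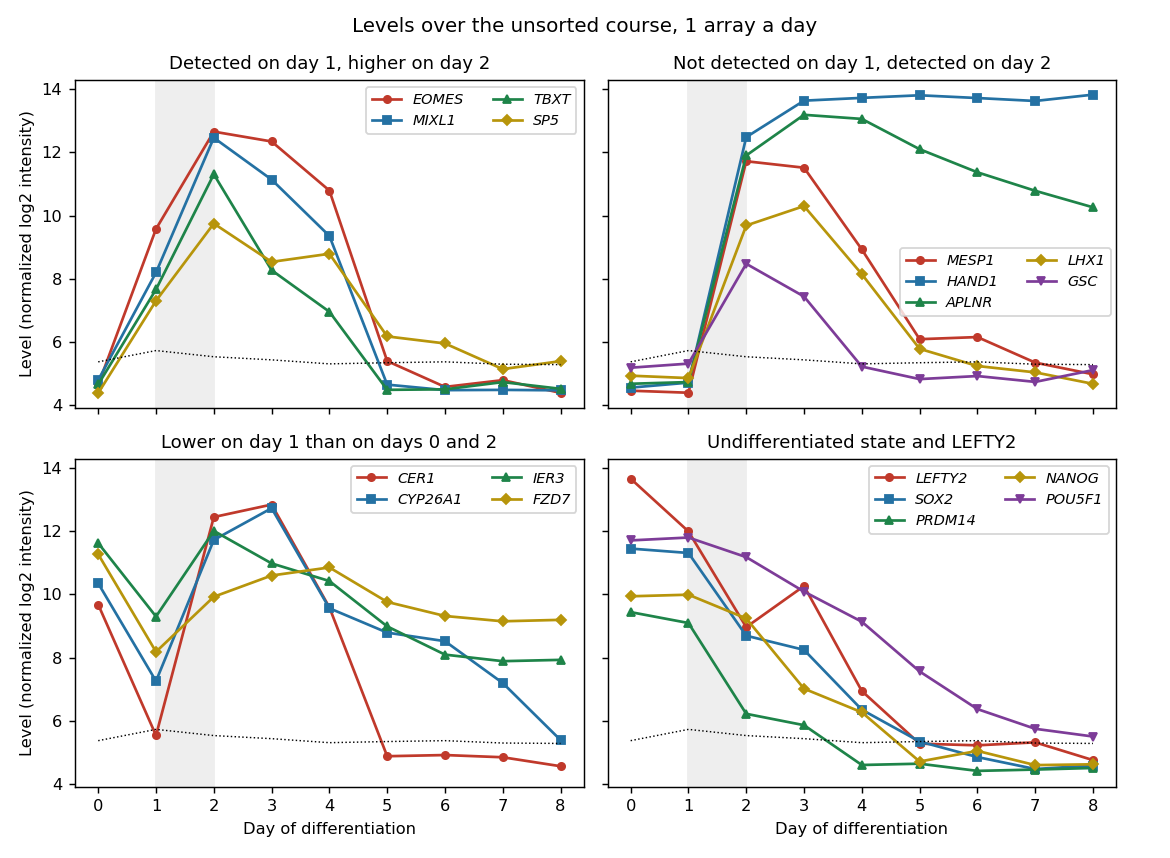
Normalized log2 intensity (vertical) by day (horizontal) of 18 genes in 4 panels, 1 array a day, with the step shaded and the detection floor dotted. EOMES, MIXL1, TBXT and SP5 were detected on day 1, MESP1, HAND1, APLNR, LHX1 and GSC on day 2; CER1, CYP26A1, IER3 and FZD7 were lowest on day 1 among days 0 to 3, and PRDM14 and SOX2 dropped from day 1 to day 2 before POU5F1.

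Genes of early and lateral mesoderm were higher along with the streak factors. Of 27 listed genes, 16 were detected on either day. Higher on day 2 were 10 and lower 1, against 2.46% and 2.88% of all genes tested. By the fit 10 rose, and the median difference was 2.23. HAND1, a basic helix-loop-helix factor of lateral and extraembryonic mesoderm, stood at 4.56, 4.71, 12.48 and 13.64 on days 0 to 3. It was at least 108-fold higher on day 2 than on day 1, rose by 3.55 ± 0.53 in the fit (adjusted p = 0.00945), and stood at 13.83 on day 8. APLNR, the apelin receptor that marks migrating mesoderm, stood at 4.68, 4.73, 11.90 and 13.19, at least 72.3-fold higher (fitted rise 3.36 ± 0.50, adjusted p = 0.00988). PDGFRA, the growth factor receptor used to sort paraxial and cardiac mesoderm, stood at 5.19, 5.79, 8.87 and 9.54, 8.43-fold higher (fitted rise 1.69 ± 0.19, adjusted p = 0.00314). Each of these 3 calls was kept under all 14 alternative fits.

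IRX3, a homeobox factor, and FOXC1, a forkhead factor of paraxial and head mesoderm, were not detected on day 1 and stood at least 43.1-fold (IRX3) and 32.2-fold (FOXC1) above it on day 2. HAPLN1, a link protein of hyaluronan matrix, was at least 12.4-fold higher. ISL1, a factor of the second heart field, was 2.61 log2 higher, TBX3, a T-box factor, 1.85, and SNAI2 (SLUG), a repressor of epithelial genes, 1.73, each as a lower limit because day 1 was below detection. Second probes of TBX3 and SNAI2, not detected on day 1 either, gave lower limits of 0.30 and 0.78. DLL3, a Notch ligand of presomitic mesoderm, stood at 7.62, 6.19, 9.53 and 10.37, and no fitted call was made for it. LFNG, which glycosylates Notch, was the lower member, by -1.25 log2. Of 14 tested Notch pathway genes, 2 were higher (DLL3, and the target HES1 by 1.10) and 2 lower (LFNG, and HES4 by -1.12). The shares over all genes tested were 2.46% and 2.88%.

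Most WNT pathway genes past 2-fold were higher on day 2. Of 27 tested, 15 were higher and 2 lower, against 2.46% and 2.88% of all genes tested. The median was 1.11, and 5 rose by the fit. Among ligands, WNT5A, which acts largely outside beta-catenin, was below detection at 4.48 on day 1 and stood at 9.61 on day 2, at least 14.7-fold higher. WNT8A was at least 2.16 and WNT3A at least 1.95 log2 higher, both from below detection; WNT5B was 1.49 higher. WNT3, the ligand needed for streak formation in the mouse, stood at 8.03 on day 0 and so was present before, with 8.60 on day 1 and 9.72 on day 2. WLS, the carrier that takes WNT proteins to the cell surface, stood at 4.95, 6.89, 10.21 and 10.96 (fitted rise 2.39 ± 0.19, adjusted p = 0.000641). Its call was kept under all 14 alternative fits.

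Among WNT receptors and their partners, ROR2, a receptor of WNT5A, was 3.16 log2 higher, and the frizzled receptors FZD7, FZD4 and FZD2 were 1.74, 1.11 and at least 1.04 higher, while FZD5 differed by -1.07. A second FZD7 probe, detected on both days, differed by -0.37. The agonist RSPO3 was at least 1.98 higher. LEF1, the transcription factor of the pathway, stood at 5.36, 6.20 and 8.73 on days 0, 1 and 2, 5.78-fold above day 1, and its second probe differed by at least 3.02 log2. TCF7L1, the member of that family that represses in pluripotent cells, was not detected on day 2 and differed by at least -1.42. The secreted inhibitors were also higher: DKK1, at 4.86 and below detection on day 1, stood at 10.84 on day 2, at least 34.5-fold higher, and DKK4 and the feedback inhibitor NKD1 were at least 2.24 and 2.43 log2 higher. AXIN2, a target in many tissues, differed by -0.24 and CCND1 by 0.20. A second DKK1 probe was not detected on day 1 (4.37) and stood at 5.65 on day 2, below the day 1 floor, so it gives no measure of the step.

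Of 19 Nodal pathway genes tested, 2 were higher and 1 lower, with a median of 0.29. Among all genes tested, 2.46% were higher and 2.88% lower. The ligand NODAL stood at 10.28, 10.17, 10.64 and 7.84 on days 0 to 3, and its coreceptor CRIPTO and the ligand GDF3 differed by 0.41 and 0.28. The inhibitors differed from each other. CER1, a secreted antagonist of Nodal, BMP and WNT, stood at 9.68, 5.54, 12.45 and 12.84, at least 105-fold higher on day 2 than on day 1, and its second probe went from 4.55 to 12.12. LEFTY2, a Nodal antagonist, had the largest difference of the lower genes detected on both days, at 13.66, 11.99, 8.97 and 10.27, 8.16-fold lower on day 2. This rank changed with the processing: in the authors' normalized values LEFTY2 differed by -3.07, and MRAP2, ACTG2 and PRDM14 by -3.41, -3.34 and -3.23. LEFTY1 stood at 12.68, 10.44, 9.55 and 8.66, a difference of -0.89.

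The fitted change of CER1 was 1.60 ± 0.85 with an adjusted p of 0.357, and no fitted call was made for this gene, whose level was lower on day 1 than on both neighbouring days. CYP26A1, which degrades retinoic acid, had the same shape, at 10.35, 7.26, 11.72 and 12.73, with 22.1-fold between days 1 and 2 and at least 2.81 log2 on a second probe. IER3, an early response gene, stood at 11.62, 9.30, 12.01 and 10.98, and FZD7 at 11.27, 8.18, 9.93 and 10.60. BMP2 stood at 6.65, 4.98, 9.84 and 10.66. On these single arrays, part of the step of these genes is a return towards the day 0 level. The day 1 array had the fewest detected probes, and its part in these low levels was not tested. For FZD7 a second probe, detected on days 1 and 2, differed by -0.37. On day 2 FZD7 was still below its day 0 level, whereas IER3, BMP2, CER1 and CYP26A1 were above theirs.

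BMP pathway genes were higher where they moved: 7 of 19 tested were higher and 0 lower, and the median was 0.32. Over all genes tested the shares were 2.46% and 2.88%. Of all 24 listed, 6 rose by the fit, but BMP2 and BMPR2 had no fitted call. BMP4, the ligand also present in the medium, stood at 7.26, 6.51, 9.36 and 11.68, 7.19-fold higher on day 2, and a second probe, not detected on day 1, was at least 0.44 log2 higher. BMP2 was at least 17.3-fold higher. MSX1, a homeobox target of BMP, stood at 5.83, 6.93, 10.37 and 11.33, 10.9-fold higher (fitted rise 2.12 ± 0.19, adjusted p = 0.000997). MSX2 was 1.28 higher, the inhibitory SMAD6 1.35, the modulator BMPER at least 2.19 and the receptor BMPR2 1.59. ID1, ID2 and ID3, direct BMP targets, differed by -0.85, 0.02 and 0.32. In the FGF pathway 4 of 21 tested were higher and 1 lower, with a median of 0.35. FGF8, an essential ligand of the streak in the mouse, was 3.17-fold higher, FGF17 at least 2.71-fold, and the feedback inhibitors DUSP5 and SPRY4 were 1.30 and 1.06 log2 higher. FGF2 differed by -1.05.

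**Figure D3:**
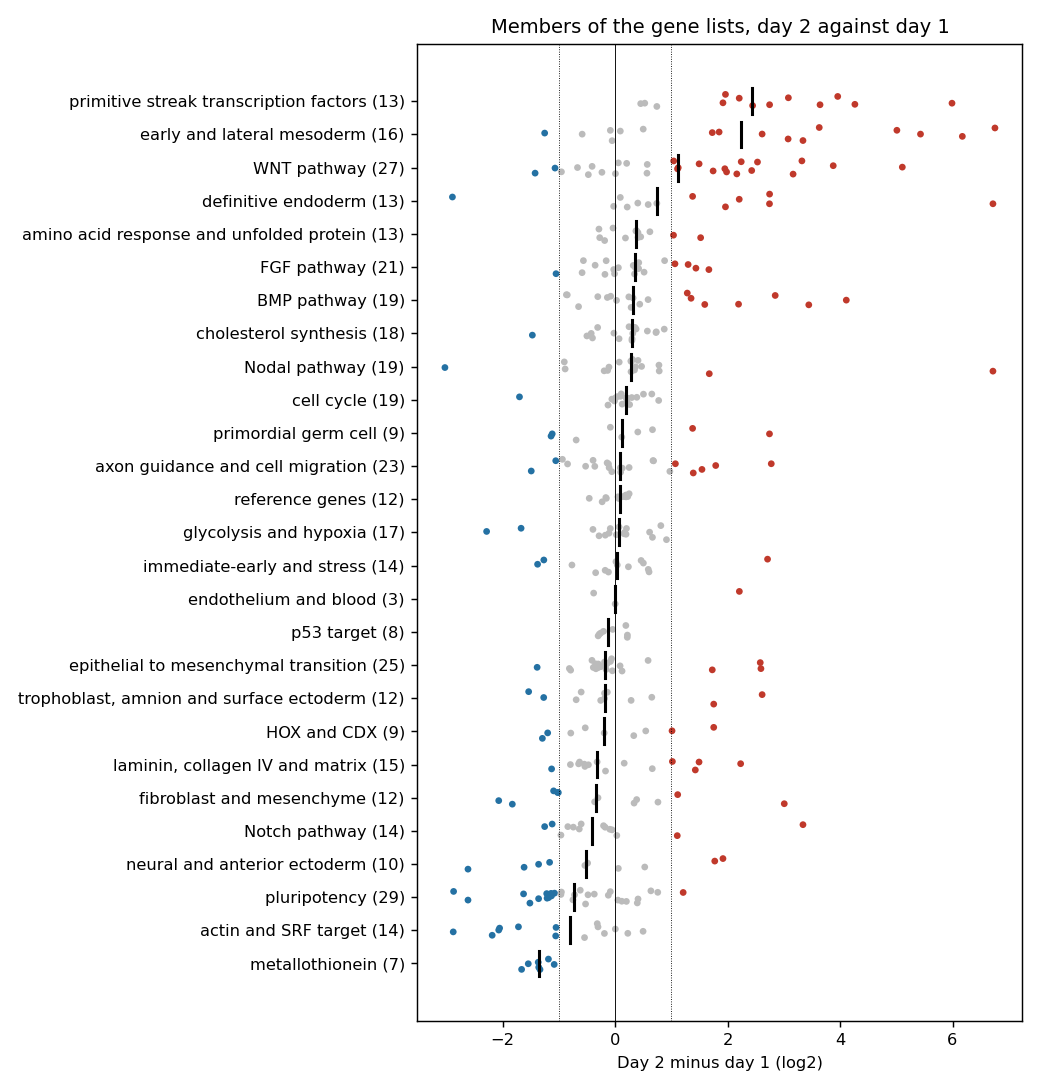
Day 2 minus day 1 on the log2 scale (horizontal) for the detected members of 27 gene lists (rows, number of members in brackets), with a bar at the median of each list and dotted lines at 2-fold. The medians run from 2.44 for streak transcription factors to -1.36 for metallothioneins, and that of reference genes is 0.09.

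Endoderm genes were higher in part. Of 13 definitive endoderm genes tested, 6 were higher and 1 lower, with a median of 0.74. Among all genes tested, 2.46% were higher and 2.88% lower. SOX17, the factor that defines definitive endoderm, was not detected on days 0 and 1 and stood at 8.47 and 8.72 on days 2 and 3, at least 6.70-fold higher. PRDM1, a repressor used in endoderm and germ cells, was at least 1.38 log2 higher. The others that were higher, CER1, GATA6, HHEX and GSC, are also counted above, and the lower gene was AFP, the fetal serum protein, which stood at 10.64, 8.43, 5.42 and 5.13 and was at least 7.44-fold lower. Of 20 endoderm genes, 4 were detected on day 1 and 12 on day 2. Among 9 HOX and CDX genes tested 2 were higher and 2 lower. CDX2, a factor of the posterior streak and of trophoblast, stood at 4.63, 5.87 and 7.62 on days 0, 1 and 2, and CDX1 was 1.01 higher. HOXA5 and CDX4 differed by -1.29 and -1.20.

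Genes of the undifferentiated state were lower in part. Of 29 tested, 11 were lower and 1 higher, against 2.88% and 2.46% of all genes tested. By the fit 5 fell, and the median was -0.72. PRDM14, a repressor that guards pluripotency, stood at 9.44, 9.10, 6.22 and 5.86, 7.33-fold lower on day 2, with -1.91 on a second probe (fitted fall -1.45 ± 0.19, adjusted p = 0.0066). SOX2 stood at 11.45, 11.31, 8.69 and 8.25, 6.14-fold lower, with -2.97 on a second probe (fitted fall -1.25 ± 0.18, adjusted p = 0.00853). Both calls were kept under all 14 alternative fits. NANOG stood at 9.94, 9.99, 9.24 and 7.02 and POU5F1 (OCT4) at 11.71, 11.80, 11.18 and 10.09, so neither passed 2-fold in this step, and both were lower on day 3. LIN28A, a blocker of let-7 processing, differed by -0.12.

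The other lower genes of that list were USP44 at -1.63, UTF1 at least -1.52, SOX3 at least -1.36, TERF1 at -1.22, PODXL at -1.21, DPPA4, DPPA3 and DPPA2 between -1.18 and -1.13, and the de novo DNA methyltransferase DNMT3B at -1.08. The higher one was GAL, the neuropeptide galanin, which stood at 11.91, 10.49 and 11.70 on days 0, 1 and 2. Among 10 neural and anterior ectoderm genes tested 4 were lower and 2 higher, against 2.88% and 2.46% of all genes tested. The lower genes were SOX2, SOX3, HESX1 (at least -1.62) and CRABP1 (-1.17), and the higher were OTX2 and ZIC2 (1.77). SOX1 and PAX6, which define neural ectoderm, were not detected on days 1 and 2.

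Adhesion and matrix genes did not move as a group. Of 25 genes of the epithelial to mesenchymal transition 3 were higher and 1 lower, with a median of -0.18. Beside this and the counts below, 2.46% of all genes tested were higher and 2.88% lower. CDH1 (E-cadherin) stood at 11.35 on day 1 and 11.26 on day 2, CDH2 (N-cadherin) differed by 0.59, EPCAM by -0.18, VIM by -0.26 and SNAI1 by 0.12. The higher genes were SNAI2, the cadherin CDH11 (at least 6.03-fold) and the fibronectin receptor subunit ITGA5 (5.98-fold), and the lower gene was the tight junction gene CLDN3 at least -1.39. HAS2, the hyaluronan synthase, rose from 7.73 to 9.96, 4.70-fold between the arrays, and its call was kept under all 14 alternative fits. Of 15 basement membrane and matrix genes tested 4 were higher and 1 lower; COL4A6 was at least 1.49 higher, the protease ADAMTS1 1.43 and LAMB1 1.02, and VCAN was -1.13. In guidance and migration 5 of 23 were higher and 2 lower. The higher genes were led by ACKR3, a scavenging receptor of the chemokine CXCL12, at least 2.78, and the ephrin receptor EPHA4 at 1.79. The lower genes were CXCL12 itself at -1.49 and SEMA3A at -1.06.

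The lists with the lowest medians were the metallothioneins and the actin and serum response factor targets. All 7 metallothioneins tested, the metal-binding proteins of the cell, were lower, between -1.66 (MT1H) and -1.08 (MT1X), and 4 fell by the fit. MT1H stood at 11.63, 10.45, 8.79 and 5.21, so it was lower on each day than on the day before. Metallothioneins are near-identical copies, and a probe may take signal from several, so the 7 are not independent. Of 14 actin and serum response factor targets 7 were lower and 0 higher, against 2.88% and 2.46% of all genes tested. Their median was -0.80, and 6 fell by the fit. ACTG2, the smooth muscle actin, stood at 10.81, 8.84, 5.96 and 4.67, ACTA1 at 11.48, 7.72, 4.99 and 4.43, and TAGLN (transgelin) at 13.32, 11.65, 9.58 and 8.01. CCN1 and MYL9 differed by -2.06 and -1.72.

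Markers of other cell types were read beside these lists. Of 17 fibroblast and mesenchyme markers, 11 were detected on day 1 and 10 on day 2, and their mean level was 7.59, 7.21, 7.05 and 7.21 on days 0 to 3. COL3A1, DCN, LUM, POSTN and FBN1 were not detected on days 1 and 2. Of the 12 tested 5 were lower and 2 higher, with a median of -0.34, and 3 fell and 1 rose by the fit. Beside this and the counts below, 2.88% of all genes tested were lower and 2.46% higher. The lower genes were COL1A1, at 9.37, 7.77, 5.94 and 6.21 on days 0 to 3, TAGLN, TWIST2 at -1.10, THY1 at -1.03 and S100A4 at -1.01. SPARC and COL5A1 were higher by 1.11 and 3.01. The parent line was kept on mouse feeders, and the part of feeder RNA in these values was not tested. Of 25 trophoblast, amnion and surface ectoderm markers 8 and 11 were detected on days 1 and 2, with means of 6.10 and 6.23, and KRT7 and CGA were undetected. Of the 12 tested 2 were higher, CDX2 and ISL1, which both rose by the fit, and 2 were lower, IGFBP3 at -1.54 and CGB5 at least -1.27. Of 25 endothelial and blood markers 2 and 3 were detected, with means of 4.93 and 5.05, and CD34, CDH5, TAL1 and HBZ were undetected; SOX18 was 2.21 higher. Of 25 neural markers 10 were detected on day 1 and 8 on day 2, with means of 8.12 and 7.74. The part of any of these cell types in the differences above was not tested.

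Most tested genes of growth and metabolism stayed within 2-fold. Among all genes tested 5.34% passed it, a share to set beside the counts below. Of 19 cell cycle genes 0 were higher and 1 was lower (CDKN1C, an inhibitor, -1.70), of 17 glycolysis and hypoxia genes 0 and 2 (ADM and ENO2, -2.29 and -1.67) and of 8 p53 targets 0 and 0. Of 13 amino acid response genes 2 were higher, SLC7A5, a leucine transporter, and ASNS, asparagine synthetase, at 1.04. Of 14 immediate-early genes 1 was higher (IER3) and 2 were lower, EGR1 at -1.38 and JUN at -1.27.

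Outside the lists, the largest difference among genes detected on both days was in CNKSR3, a scaffold of RAS signalling, which stood at 6.08, 6.31, 11.56 and 11.41, 38.0-fold higher on day 2. CA12, a carbonic anhydrase, was 17.1-fold higher, BCAR3, an adaptor, 12.3-fold, ENC1, an actin-binding protein, 10.7-fold, and MFAP4, a matrix protein, 10.6-fold. SLC16A3, a lactate transporter, was 9.23-fold higher. SLCO2A1, a prostaglandin transporter, stood at 4.44, 6.99, 10.07 and 10.82 and had one of the smallest adjusted p-values of the fit (2.41 ± 0.11, adjusted p = 5.7e-05). GRP, the gastrin-releasing peptide, was not detected on day 1 (4.33) and stood at 11.13 and 12.14 on days 2 and 3, at least 42.3-fold higher. RHOBTB3 was at least 15.1-fold higher. Among lower genes, VGF, a secreted neuropeptide precursor, was -2.62, MRAP2, a melanocortin receptor accessory protein, -2.80, and ANXA1 (annexin A1), at 11.80, 9.29, 7.14 and 5.58, -2.15. MX1 and IDO1 were at least 5.12-fold and 4.07-fold lower.

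A second probe, detected on either day, could be read for 76 of the higher genes and 66 of the lower. Of the 76, 30 second probes were detected on both days; 26 of these had the same sign and 16 were past 2-fold. Another 45 were not detected on day 1 and give lower limits. Of the 66, 44 were detected on both days; all 44 had the same sign and 23 were past 2-fold, and 20 were not detected on day 2. With the limits counted, 39 of the 76 and 30 of the 66 were past 2-fold and 0 were past 2-fold the other way. Over all 2986 genes with a second probe, 1.91% were at least 2-fold higher on it and 1.77% lower. Second probes share the RNA and the array with the first, so they bear on the probe and not on the sample. FZD7 was among the 4 higher genes whose second probe, detected on both days, had the other sign, at 7.34 and 6.97. The second probes of KCNG1 (4.48 and 5.74) and MRAP2 (5.75 and 4.47) lay close to the floors and give no measure of the step.

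**Figure D4:**
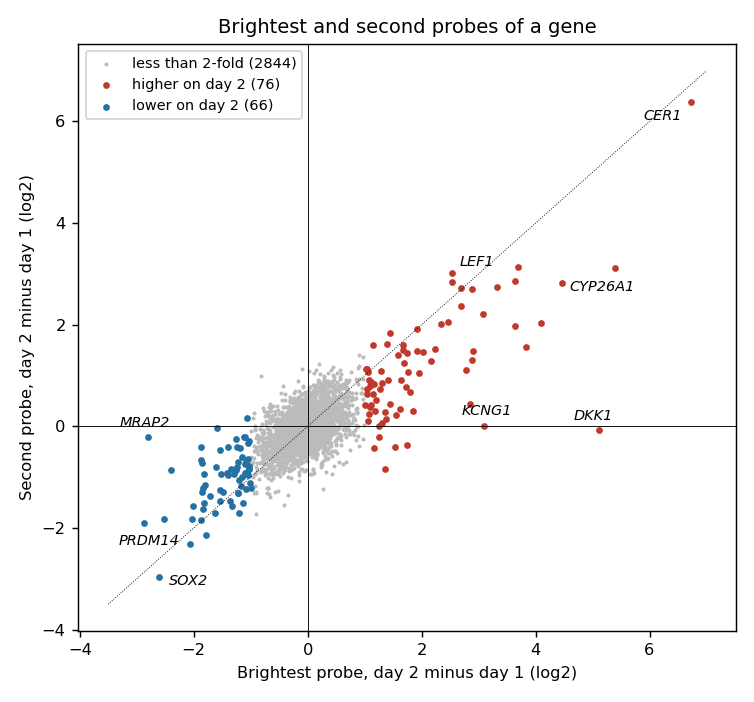
Day 2 minus day 1 on the log2 scale of the second probe (vertical) against the brightest probe (horizontal), 1 point for each of 2986 genes with more than 1 probe. Undetected levels are raised to the floor, so that the second probes of DKK1, KCNG1 and MRAP2, which were near background, lie near 0. Of the second probes detected on both days, 26 of 30 in higher genes and 44 of 44 in lower genes have the sign of the first.

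The levels of day 0 and day 3 did not enter the difference that chose the members. These arrays did enter the joint normalization and the choice of the brightest probe of each gene. Of the 328 higher genes, 214 (65.2%) were also at least 2-fold higher on day 3 than on day 0, against 5.93% of all 14712 genes tested between these arrays, and 9 were lower. Of the 384 lower genes, 216 (56.2%) were also lower, against 6.05%, and 5 were higher. None of EOMES, MIXL1, MESP1 and HAND1 was detected on day 0, so their day 0 levels were taken at the floor of that array. On day 3 EOMES stood at least 126-fold, MIXL1 at least 54.5-fold, MESP1 at least 70.7-fold and HAND1 at least 308-fold above day 0. At day 8 against day 0 the shares were 165 (50.3%) higher, against 13.5% of all, and 183 (47.7%) lower, against 12.7%; 34 higher genes had turned lower and 45 lower genes higher, and 76 were higher on day 3 and not on day 8. These shares compare 1 array with 1 array and carry no test.

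**Figure D5:**
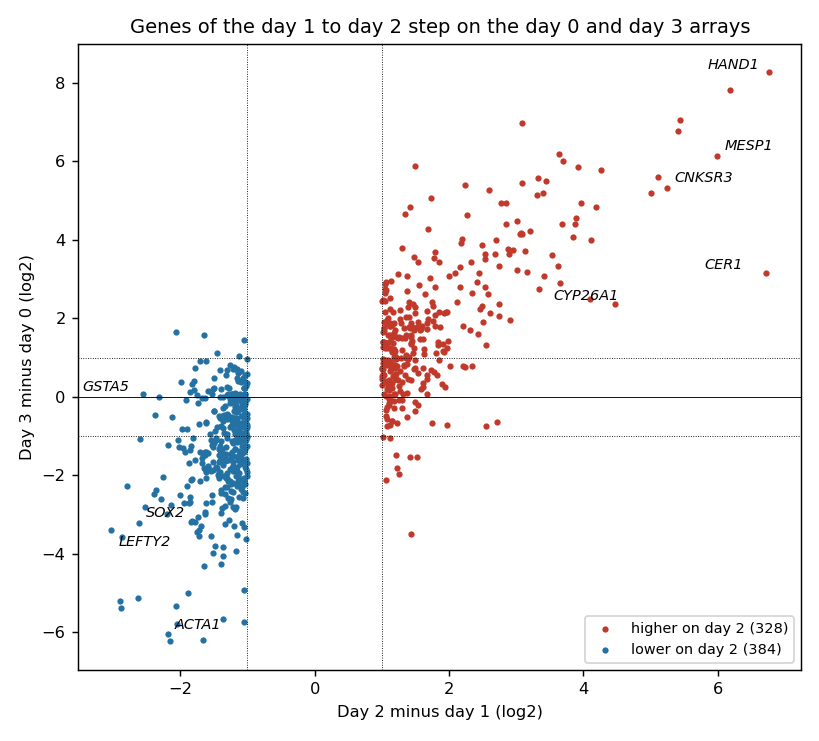
Day 3 minus day 0 (vertical) against day 2 minus day 1 (horizontal), log2 scale, for the 328 higher and 384 lower genes, with dotted lines at 2-fold. Most higher genes lie above the upper line and most lower genes below the lower one; CER1 and CYP26A1 lie lower than HAND1 because their day 0 level was already high.

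The days of the highest level split the genes further. Of the 328 higher genes, 98 were highest on day 2, 69 on day 3 and 52 on day 4, and 43 on day 8. Of the 384 lower genes 193 were highest on day 1 and 103 on day 0. By the rule that chose them, a higher gene cannot be highest on day 1 nor a lower gene on day 2. These counts therefore follow in part from that choice, and the same counts over all genes are not given. CDH6, a cadherin, stood at 5.75, 8.48, 6.16 and 5.74 on days 0 to 3. GSTA5, a glutathione transferase, stood at 4.97, 8.77, 6.22 and 4.66 on those days and was higher again on day 8, at 7.69. The genes most like EOMES over the 9 days by Pearson correlation were MIXL1 at 0.988, HLA-DRB6 at 0.979, DUSP10 at 0.963, SP5 at 0.951 and MAP3K4 at 0.949. The 9 points are single arrays in series, so the coefficients are descriptions.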

How the data were processed

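The authors deposited, for 13 Illumina BeadChip arrays, the non-normalized probe intensities. They also deposited a detection fraction per probe and array, and 1 minus it was used here as the detection p. The authors' deposited normalized values were read as log2, from their range. GenomeStudio 2010.2 and lumi are named in the submitters' processing notes, with no settings. Intensities were background-corrected and quantile-normalized together with neqc in limma 3.58.1 (R 4.3.3, offset 16); no replicates exist. The brightest of a gene's 47231 probes stood for it, and probes without a symbol counted 1 each (12276 probes had a symbol not in RefSeq, 3270 none). Levels were on the log2 scale. The number of arrays limits precision. The fitted change came from limma's moderated test on a natural spline of day with Benjamini-Hochberg adjustment over all genes, checked on simulated data. Named genes were the 15 largest differences each way detected on both days, the 12 brightest detected on 1 day each way, EOMES, MIXL1, MESP1 and members of 27 gene lists. Members and lists were chosen with earlier results of these data known. The 4 sorted fractions entered normalization alone. Alternatives are given at the end. Some members of the lists are not reported here.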

Additional observations from a re-analysis of the deposited data

How the results depend on the processing

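All 156 named genes kept their direction under the authors' normalized values, without background correction and with days 1 and 2 normalized alone. In the last, 155 stayed past 2-fold. These settings process again the same 2 arrays whose difference chose the genes, so they bear on the processing and are not separate support. Counts of genes depended more on the setting. The authors' normalized values gave 684 lower genes, and no background correction gave 581. An offset of 50 gave 218 higher and 214 lower, and levels left unfloored gave 596 and 604. Detection on both arrays left 212 higher genes, and a 4-fold rule 85 higher and 28 lower. Genes with a current symbol, an alternative chosen after seeing the data, numbered 300 and 310. The fitted falls were 51 with 2 degrees of freedom and the fitted rises 59 with no detection filter. Leaving out each day in turn gave 47 to 272 rises and 57 to 211 falls, with 64, 62 and 64 rises without day 6, day 7 and day 8; the cause was not tested. Of 71 named genes with a fitted call, 18 kept it under all 14 alternatives. Genes also lower on day 3 than on day 0 numbered 327 with the authors' values; with a 4-fold rule 73 were also higher and 19 also lower. No paired analysis was possible because each day has a single array and no replicate number is given.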

Other observations

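Of the 9 genes higher on day 2 than on day 1 but lower on day 3 than on day 0, named after their values were seen, SLC7A5 stood at 13.05, 10.63, 12.15 and 11.53 on days 0 to 3 and PLAU, the urokinase gene, at 9.46, 6.81, 8.06 and 7.50. Both had their lowest level of these days on day 1. ABCA1, a cholesterol transporter among the 5 genes that went the other way, stood at 5.20, 7.19, 5.54 and 6.95 and reached 11.21 on day 8.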
